A study of Mus musculus with 12 samples.

Results

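Mitochondrial ribosomal proteins are encoded in the nucleus by the Mrpl genes (large subunit) and the Mrps genes (small subunit). On these arrays 77 genes carried such a symbol, 48 Mrpl and 29 Mrps, out of 19938 genes with a probe set of their own. They were taken by symbol alone, with symbols of the array annotation matched to RefSeq and with the brightest probe set standing for a gene that had several. Several probe sets were present for 8 of the genes, and RefSeq lists at least 1 pseudogene for 6. All 77 lay above the limit for dim genes, a mean log2 signal of 5.81, and their means over the 12 arrays ran between 6.52 and 10.6. Mrpl53 was not among them, because its only probe set is shared with Ccdc142.

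The RNA came from the hypothalamus of male C57BL/6J mice, 23 weeks old, made obese by 20 weeks on a diet with 45% fat that began at 3 weeks of age. All mice first received intraperitoneal DMSO for 4 days, and then for 4 more days daily withaferin A (2 mg/kg), celastrol (100 µg/kg) or DMSO, the vehicle, with 4 arrays in each group. Withaferin A, a steroidal lactone, and celastrol, a triterpenoid, are plant compounds that lower body weight in obese mice. The labels call the arrays of a group biological replicates and do not say whether an array held RNA of 1 mouse or of several. No lean group and no untreated group was analysed here, so every difference below is one within obese, injected mice.

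The mitochondrial ribosome translates the few messages of mitochondrial DNA, which encode core subunits of the respiratory chain and the ATP synthase. All its proteins are imported from the cytosol and assembled onto a pair of rRNAs made inside the organelle. Many have a counterpart in the bacterial ribosome, while others exist only in mitochondria. The hypothalamic neurons that control feeding depend on oxidative phosphorylation for their firing, as neurons do in general.

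The array medians lay between 6.89 and 6.98 and the correlations between arrays between 0.981 and 0.994. The means of 9 hypothalamic markers lay above those of between 45.2% (Nr5a1) and 99.2% (Hcrt) of all genes, with Pomc at 65.02% and Sim1 at 69.1%. On average over the 9, the arrays ran between -0.245 and -0.005 relative to DMSO with withaferin A, between -0.125 and 0.064 with celastrol and between -0.056 and 0.077 with DMSO. Of 6 pituitary markers on the array, 4 passed the limit for dim genes (Gh, Lhb, Cga and Prl). Their mean relative to DMSO ran between 0.03 and 0.59 with withaferin A, between 0.49 and 3.09 with celastrol, and between -0.29 and 0.29 with DMSO itself. Celastrol replicate 2 was the array at 3.09. The mean of 6 oligodendrocyte markers ran between -0.29 and -0.07 with withaferin A, between -0.29 and -0.22 with celastrol, and between -0.04 and 0.06 with DMSO. That of 5 endothelial markers ran between -0.195 and 0.022 with withaferin A, between -0.264 and -0.092 with celastrol and between -0.041 and 0.040 with DMSO. For 5 microglial markers it ran between -0.356 and -0.036 with withaferin A, between -0.211 and -0.003 with celastrol and between -0.039 and 0.066 with DMSO. Astrocyte, neuron, thalamus and red cell marker means of the treated groups overlapped with DMSO. After celastrol, Oxt (-0.40, adjusted p = 0.0179), the oligodendrocyte genes Opalin (-1.003, 0.0229) and Sox10 (-0.39, 0.0433) and the endothelial gene Tek (-0.55, 0.0450) fell in limma's test. The markers of a list did not all move together. Of the 6 oligodendrocyte markers 1 was higher after celastrol, at 0.31 and without overlap with DMSO. Of the 9 hypothalamic markers 2 lay above 0, up to 0.63, and of the 5 endothelial markers 2 did, up to 0.04. The part of these cell types in the values below was not tested, apart from values given without celastrol replicate 2. In RNA of whole tissue, fewer cells of a type and less RNA per cell cannot be told apart.

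The first comparison asked whether withaferin A altered mitochondrial ribosomal protein transcripts. No member passed the test after withaferin A, yet most lay slightly below DMSO. The median log2 difference of the 77 members, withaferin A minus DMSO, was -0.081, or -5.47% in signal, against -0.0041 over the 14953 genes tested. Of the members, 58 (75.3%) lay below 0, against 51.5% of all genes. The large-subunit genes had a median of -0.084 with 39 of 48 below 0, and the small-subunit genes a median of -0.056 with 19 of 29 below 0. Without withaferin A replicate 4 the small-subunit median was -0.036.

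In limma's moderated test with Benjamini-Hochberg adjustment over all genes, 0 of 77 members rose and 0 fell at an adjusted p under 0.05. That is also what all genes gave, with 0 of 14953 called (0%). At an adjusted p under 0.10 the members called were again 0, against 0.0535% of all genes. The lowest adjusted p of a member was 0.155, for Mrpl13. Before adjustment, 15 members were under 0.05, all of them lower after withaferin A (12 Mrpl and 3 Mrps), which is 19.5% of the members against 9.11% of all genes that were lower and 6.62% that were higher at that level. These unadjusted counts describe the members and are not calls.

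On single arrays, the mean of the 77 members relative to the DMSO mean was -0.106, -0.062, -0.038 and -0.109 after withaferin A, -0.022, -0.009, -0.049 and -0.064 after celastrol, and 0.021, -0.007, -0.010 and -0.004 after DMSO. All 4 withaferin A arrays thus lay below all 4 DMSO arrays, while celastrol replicate 2 fell within the DMSO range. Of the 77 members, 63, 50, 50 and 61 were below their DMSO mean on the withaferin A arrays, 50, 44, 57 and 56 on the celastrol arrays, and 30, 42, 45 and 41 on the DMSO arrays. On every withaferin A array at least 50 members thus lay below their DMSO mean. As shares of the members these were 81.8%, 64.9%, 64.9% and 79.2% after withaferin A and 64.9%, 57.1%, 74.0% and 72.7% after celastrol. Over all genes they were 58.3%, 49.2%, 49.9% and 50.5% after withaferin A and 44.1%, 60.9%, 56.3% and 57.8% after celastrol. On the DMSO arrays they were 39.0%, 54.5%, 58.4% and 53.2% of the members and 53.7%, 52.8%, 45.6% and 49.4% of all genes.

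**Figure D1:**
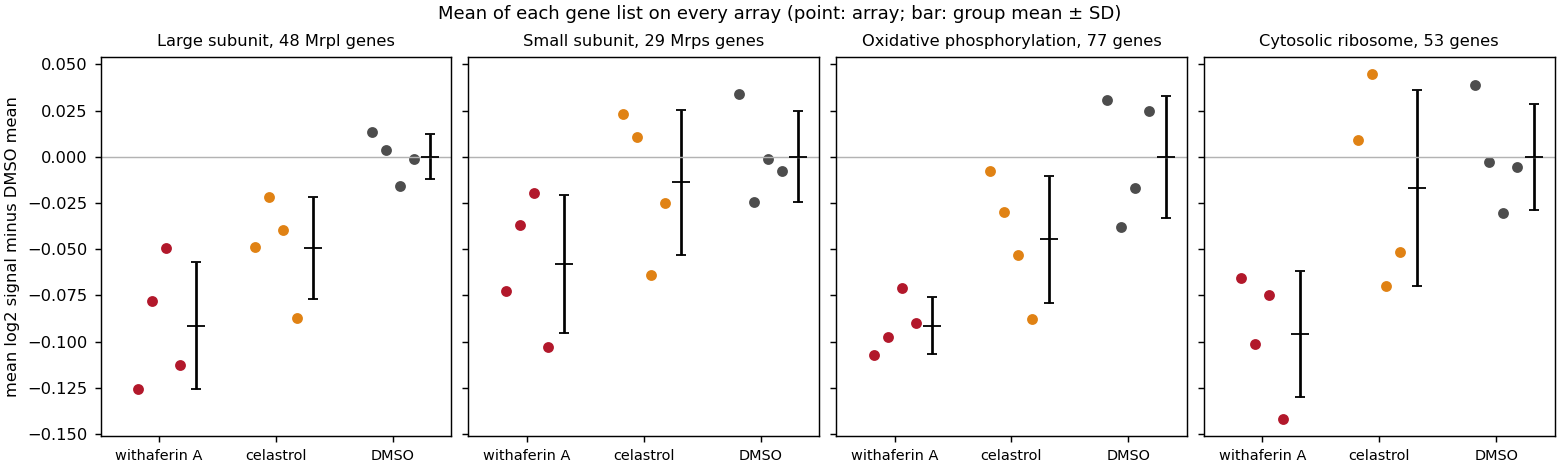
Mean log2 signal of 4 gene lists on every array, relative to the mean of the DMSO arrays (y axis), for withaferin A, celastrol and DMSO (x axis); each point is an array and each bar the group mean ± SD (n = 4). The Mrpl means of the withaferin A and celastrol arrays all lie below those of the DMSO arrays, with celastrol replicate 2 close to them. The Mrps means of the groups overlap.

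Separated by subunit, the mean of the large-subunit genes was -0.126, -0.078, -0.049 and -0.113 after withaferin A, -0.049, -0.022, -0.040 and -0.087 after celastrol, and 0.014, 0.004, -0.016 and -0.001 after DMSO. Neither treated group overlapped with DMSO in that mean, but celastrol replicate 2, at -0.022, lay close to DMSO replicate 3, at -0.016. Over all genes the mean was -0.020, 0.008, 0.003 and 0.009 after withaferin A and 0.022, -0.024, -0.014 and -0.028 after celastrol. After DMSO it was -0.006, -0.006, 0.012 and 0.001. The large-subunit mean of celastrol replicate 2 was thus no lower than the mean over all genes on that array. The mean of the small-subunit genes was -0.073, -0.037, -0.019 and -0.103 after withaferin A, 0.023, 0.011, -0.064 and -0.025 after celastrol, and 0.034, -0.025, -0.001 and -0.008 after DMSO, so the groups overlapped. That contrast is not itself a test of a difference between the subunits. The large-minus-small difference of the medians was -0.028 for withaferin A against DMSO and -0.027 for celastrol against DMSO, close to the 0.030 by which the difference of the 2 means varied between arrays of a group (pooled SD). Array by array that difference of means was -0.053, -0.041, -0.030 and -0.010 after withaferin A, -0.072, -0.033, 0.024 and -0.062 after celastrol, and -0.020, 0.028, -0.015 and 0.007 after DMSO. Under renewed quantile normalization the median difference for withaferin A was 0.001, and without celastrol replicate 2 that for celastrol was 0.003.

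Symbols do not map cleanly onto the subunits. Mrps18a and Mrps30 sit in the large subunit in structures of the mammalian ribosome, and Mrps36 is a subunit of the 2-oxoglutarate dehydrogenase complex in the citric acid cycle rather than a ribosomal protein. With the genes placed by structure, the large-minus-small difference of the medians was -0.043 for withaferin A against DMSO, -0.022 for celastrol against DMSO and -0.029 for withaferin A against celastrol. By origin, the 48 members with a bacterial homologue had a median of -0.062 after withaferin A, and the 28 found only in mitochondria had a median of -0.083, both relative to DMSO.

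**Figure D2:**
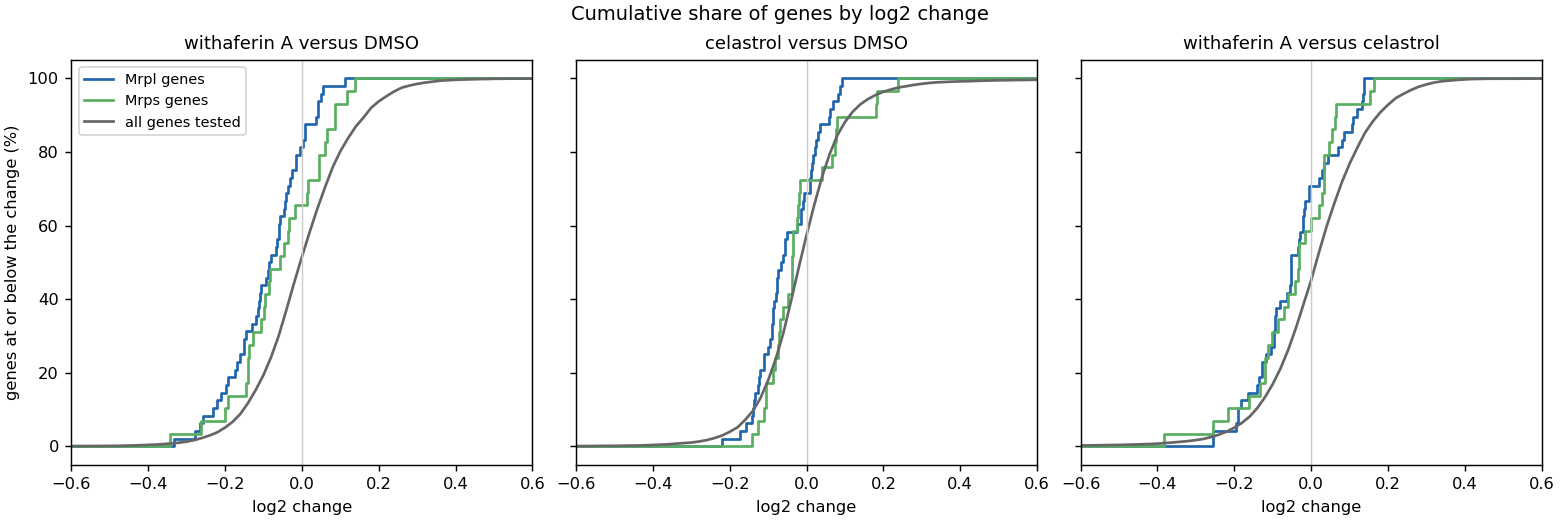
Cumulative share of genes (y axis, percent) by log2 change (x axis) for the Mrpl genes, the Mrps genes and all 14953 genes tested, in each of the 3 comparisons. With withaferin A against DMSO, the curves of both subunits lie to the left of the curve of all genes over most of the range, with medians of -0.084 and -0.056 against -0.0041.

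Among the large-subunit members, Mrpl13, a homologue of bacterial L13, had the smallest p against DMSO. It had 7.96, 7.96, 7.91 and 7.74 (log2 signal) after withaferin A, against 8.16, 8.20, 8.13 and 8.11 after DMSO. The groups did not overlap, and the difference was -0.26 ± 0.06 (SE, n = 4 per group; limma adjusted p = 0.155). Its celastrol arrays, at 8.004, 8.11, 8.07 and 8.17, overlapped with DMSO and stood above all withaferin A arrays.

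Mrpl23, a protein at the rim of the polypeptide exit tunnel, had 9.26, 9.34, 9.37 and 9.23 after withaferin A, against 9.53, 9.55, 9.44 and 9.79 after DMSO. These groups did not overlap either, with a difference of -0.28 ± 0.08 (SE; limma adjusted p = 0.184). A further probe set annotated to Mrpl23 gave -0.29 for the same comparison. RefSeq lists a pseudogene of Mrpl23, so the signal may not come from this gene alone.

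Mrpl42, which exists only in mitochondria, had 6.13, 6.18, 6.46 and 6.51 after withaferin A, against 6.90, 6.62, 6.48 and 6.61 after DMSO. The groups overlapped by 1 withaferin A array and the DMSO array at 6.48, and the difference was -0.33 ± 0.10 (SE; limma adjusted p = 0.185). Without DMSO replicate 1, the array at 6.90, it was -0.25.

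Mrpl16, the homologue of bacterial L16, had 8.24, 8.65, 8.48 and 8.60 after withaferin A, against 8.84, 8.81, 8.78 and 8.61 after DMSO. One array of each group crossed over, and the difference was -0.26 ± 0.08 (SE; limma adjusted p = 0.190). Without withaferin A replicate 1, the lowest array, it was -0.18.

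Mrpl40 and Mrpl38 belong to the central protuberance, the part of the large subunit that faces the head of the small one. Mrpl40 had 8.77, 8.85, 8.80 and 8.59 after withaferin A, against 9.08, 8.92, 8.84 and 9.01 after DMSO, a difference of -0.21 ± 0.07 (SE; limma adjusted p = 0.203), with the highest withaferin A array just above the lowest DMSO array. Mrpl38 had 8.89, 8.74, 8.85 and 8.80 after withaferin A, against 8.97, 8.95, 8.94 and 9.07 after DMSO, without overlap and with a difference of -0.16 ± 0.06 (SE; limma adjusted p = 0.236).

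Mrpl45 helps to hold the ribosome at the inner membrane, where nascent respiratory subunits are inserted. Its signal was 7.25, 7.34, 7.66 and 7.18 after withaferin A, against 7.61, 7.52, 7.59 and 7.58 after DMSO. Withaferin A replicate 3 was above all DMSO arrays and the other 3 were below all of them, with a difference of -0.22 ± 0.09 (SE; limma adjusted p = 0.270).

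Of the small-subunit symbols, the 3 paralogues of bacterial S18 had the smallest p, with Mrps25 next. Mrps18b had 8.96, 8.96, 8.88 and 8.998 after withaferin A, against 9.21, 9.05, 9.11 and 9.21 after DMSO, a difference of -0.19 ± 0.06 (SE; limma adjusted p = 0.192). Mrps18c had 8.19, 8.34, 8.21 and 8.12 after withaferin A, against 8.89, 8.47, 8.35 and 8.52 after DMSO, a difference of -0.34 ± 0.11 (SE; limma adjusted p = 0.202). In both the groups did not overlap, although for Mrps18c the highest withaferin A array and the lowest DMSO array were close, and without DMSO replicate 1 its difference was -0.23. Mrps18a, the paralogue found in the large subunit, had 9.53, 9.42, 9.59 and 9.47 after withaferin A, against 9.68, 9.70, 9.51 and 9.63 after DMSO, a difference of -0.13 ± 0.06 (SE; limma adjusted p = 0.313) with overlap. Mrps25 had 8.85, 8.97, 8.42 and 8.64 after withaferin A, against 8.97, 8.88, 8.91 and 8.92 after DMSO, where withaferin A replicates 3 and 4 were the lowest arrays. Its difference was -0.20 ± 0.09 (SE; limma adjusted p = 0.324), and -0.10 without withaferin A replicate 3.

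In all, 9 members had withaferin A arrays that lay entirely below the DMSO arrays (Mrpl13, Mrpl23, Mrpl32, Mrpl38, Mrpl39, Mrps11, Mrps18b, Mrps18c and Mrps36), which is 11.7% of the members against 4.69% of all genes. Members that lay entirely above DMSO numbered 0, against 2.91% of all genes. Fewer arrays overlap less often, for members and for all genes. Without DMSO replicate 3 the count in either direction was 17 of 77 members against 20.8% of all genes, a share near the background, and without withaferin A replicate 2 it was 17 against 12.3%. At the other end, Mrps26 (0.14), Mrps16 (0.12) and Mrpl2 (0.11) had the highest differences from DMSO, and limma's adjusted p was 0.404 or more for each of them.

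**Figure D3:**
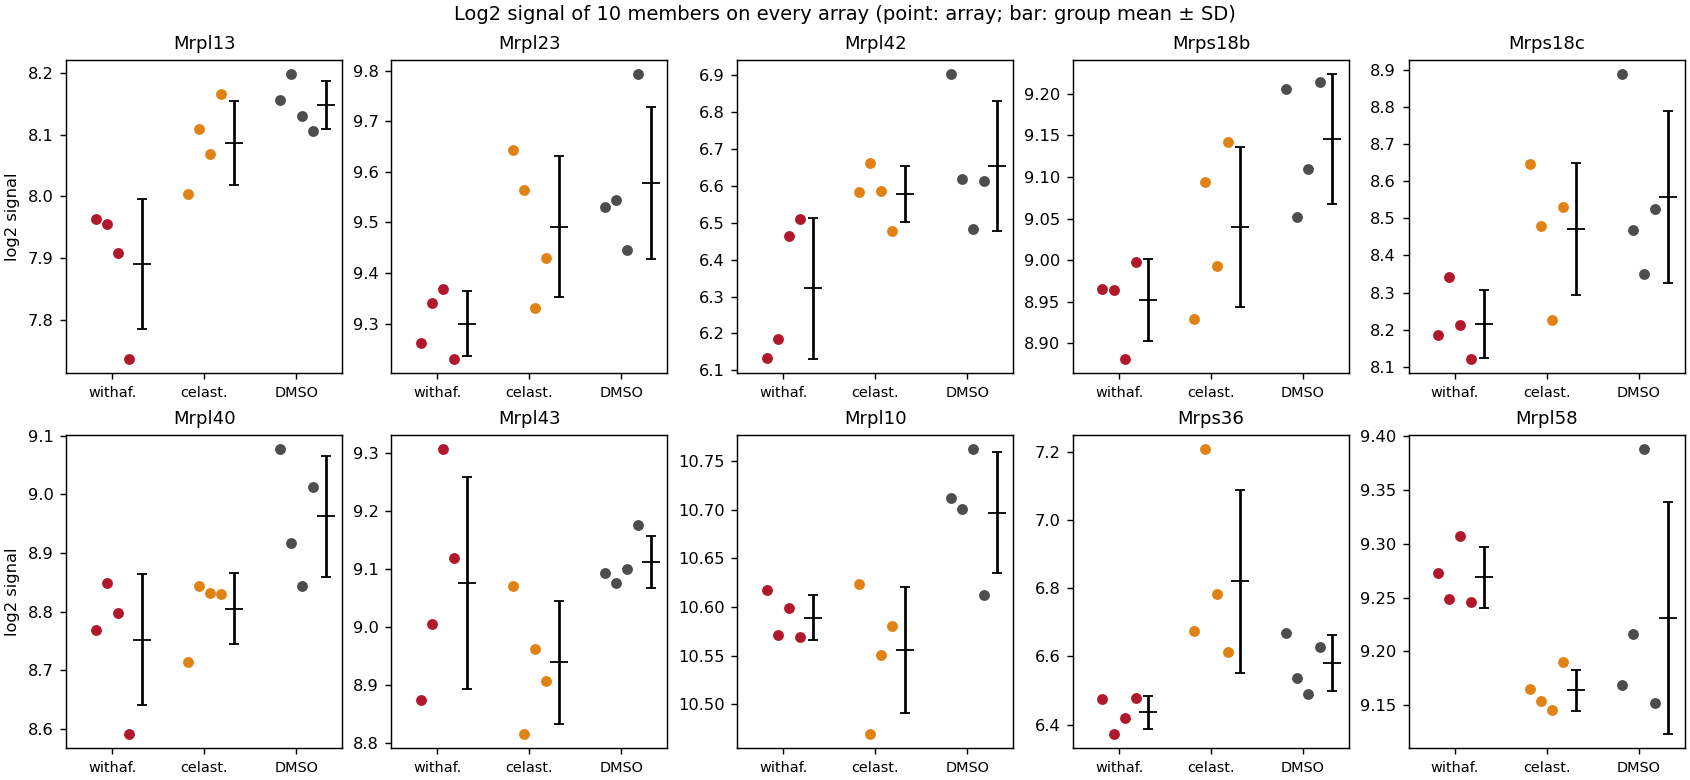
Log2 signal (y axis) of 10 members on every array of the withaferin A, celastrol and DMSO groups (x axis); each point is an array and each bar the group mean ± SD (n = 4), on a separate scale per gene that does not start at 0. In Mrpl13, Mrpl23, Mrps18b and Mrps18c no withaferin A array reaches the lowest DMSO array, and in Mrps36 celastrol replicate 2 stands at 7.21, above all other arrays.

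The 95% intervals of the difference between withaferin A and DMSO lay within -0.5 and 0.5 for 74 of 77 members (95.3% of all genes). The exceptions were Mrpl42, Mrps17 and Mrps18c, whose intervals reached below -0.5. Differences of the size of the median could not be resolved for single genes. The pooled SD between arrays had a median of 0.102 over the members and 0.107 over all genes.

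The start regions of the members were read from RefSeq's promoter table (build GRCm38.p6), from 250 bases before to 50 bases after the start, which held 68 of the 77. Searched on both strands were the core of the sites of NRF1, nuclear respiratory factor 1 (GCGCA, any base, then GCGC), the ETS core CCGGAAG bound by nuclear respiratory factor 2, also called GABP, and the core AANATGGCG of YY1. The last of these can share its first letters with the end of an ETS core. The NRF1 core was in 13 member promoters (19.1%, against 5.19% of 27018 promoters of all genes), the ETS core in 25 (36.8% against 9.93%) and the YY1 core in 11 (16.2% against 2.76%). At least 1 of the 3 was in 41 members (60.3% against 15.9%). Other lists had shares of like size, with at least 1 core in 54.4% of the promoters of oxidative phosphorylation subunits and 55.4% of those of cytosolic ribosomal proteins. The NRF1 core was in 17 of 68 promoters of the first list and 8.93% of the second, the ETS core in 23.5% and 41.1%, and the YY1 core in 14.7% and 8.93%. Promoters of all genes were not matched for base composition, and a match of letters is not evidence of binding.

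By subunit the shares for Mrpl and Mrps promoters were 23.8% and 11.5% for the NRF1 core, 33.3% and 42.3% for the ETS core, and 14.3% and 19.2% for the YY1 core. Of the members just described, Mrpl13 and Mrpl38 were not searched. Mrpl16, Mrpl23, Mrpl40 and Mrps25 had none of the 3, while Mrpl45 had 3 NRF1 cores, Mrps18b and Mrps18c an ETS core, Mrps18a an ETS and a YY1 core, and Mrpl42 a YY1 core. The stretches of Mrpl45, Mrps18c and Mrpl42 are shown as examples that hold a core, with the cores in capitals. Differences with withaferin A more negative than that of Mrpl45 were also found for Mrpl16, Mrpl23, Mrps17 and Mrpl41 (brighter probe set). These genes had none of the 3 cores. A link between the cores and the differences was not tested. The Mrpl45 and Mrps18c stretches end at most 30 bases past a start, and that of Mrpl42 is a stretch of 30 bases downstream of the start, around the core. The Mrpl45 cores begin at bases -120, -38 and 15 from the start (base 0), the Mrps18c core at base -156, and the Mrpl42 core at base 27. The Mrps18c stretch spans the region between its start and that of Helq, a gene on the opposite strand that starts 159 bases upstream. The core in that stretch thus lies beside the Helq start.
Mrpl45 (chr11:97315466-97315745, plus strand): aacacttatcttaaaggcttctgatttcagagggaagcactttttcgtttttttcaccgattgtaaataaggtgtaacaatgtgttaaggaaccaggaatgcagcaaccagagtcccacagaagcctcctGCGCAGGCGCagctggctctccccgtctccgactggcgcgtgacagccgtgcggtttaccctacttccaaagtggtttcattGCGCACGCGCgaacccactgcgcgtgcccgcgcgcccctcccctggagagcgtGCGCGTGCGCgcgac
Mrps18c (chr5:100798571-100798788, plus strand): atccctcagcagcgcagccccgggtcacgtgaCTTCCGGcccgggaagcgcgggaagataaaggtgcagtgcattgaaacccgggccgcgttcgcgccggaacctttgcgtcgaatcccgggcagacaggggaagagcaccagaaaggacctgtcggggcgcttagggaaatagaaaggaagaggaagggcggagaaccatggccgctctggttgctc
Mrpl42 (chr10:95501903-95501932, minus strand): agattgaagcAAGATGGCGagcgcgcggtg

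The second comparison asked the same of celastrol. No member passed the test after celastrol, although it was the comparison with the most calls elsewhere. The median log2 difference of the 77 members, celastrol minus DMSO, was -0.050, against -0.017 over all genes, and 54 members (70.1%) lay below 0 against 57.4% of all genes. The large-subunit genes had a median of -0.064 and the small-subunit genes one of -0.037. The small-subunit median was -0.058 without celastrol replicate 1, -0.056 without celastrol replicate 2 and -0.023 without DMSO replicate 1. Both compounds were set against the same 4 DMSO arrays, so their medians are not independent of each other.

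In limma's test 0 of 77 members rose and 0 fell after celastrol, where 115 of 14953 genes (0.769%) were called, 68 higher (0.455%) and 47 lower (0.314%). At an adjusted p under 0.10 the members called were also 0, against 1.42% of all genes. The lowest adjusted p of a member was 0.298. Before adjustment 3 members were under 0.05, 1 higher (Mrps36) and 2 lower (Mrpl10 and Mrpl40), against 4.19% of all genes higher, 6.25% lower and 10.4% in either direction at that level. The intervals of all 77 lay within -0.5 and 0.5, against 96.2% of all genes. Without celastrol replicate 2, the array rich in pituitary transcripts, the members' median was -0.054 and that of all genes -0.012.

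Mrpl10, which anchors the stalk of the large subunit that recruits elongation factors, had the lowest adjusted p. Its signal was 10.62, 10.47, 10.55 and 10.58 after celastrol, against 10.71, 10.70, 10.76 and 10.61 after DMSO. A single celastrol array stood above the lowest DMSO array, and the difference was -0.14 ± 0.05 (SE, n = 4 per group; limma adjusted p = 0.298). After withaferin A it was 10.62, 10.57, 10.60 and 10.57, close to the celastrol arrays.

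Mrpl40 had 8.71, 8.84, 8.83 and 8.83 after celastrol, against 9.08, 8.92, 8.84 and 9.01 after DMSO, a difference of -0.16 ± 0.07 (SE; limma adjusted p = 0.426). Mrpl43, a large-subunit protein without a bacterial counterpart, had 9.07, 8.82, 8.96 and 8.91 after celastrol, against 9.09, 9.08, 9.10 and 9.18 after DMSO, a difference of -0.17 ± 0.08 (SE; limma adjusted p = 0.492). These were the 2 members whose celastrol arrays lay entirely below DMSO, 2 of 77 members against 4.50% of all genes, and in both the nearest arrays almost touched. Members entirely above DMSO numbered 0, against 2.71% of all genes. The count of non-overlapping members in either direction was 4 without celastrol replicate 3 or 4, 5 without DMSO replicate 3, 6 without DMSO replicate 2 or celastrol replicate 2, 7 without DMSO replicate 4 and 8 without celastrol replicate 1. Over these settings the share of all genes ran between 9.35% and 12.6%, against 8 of 77 members at most.

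Mrpl22, a protein of the exit tunnel, had 7.39, 7.38, 7.56 and 7.11 after celastrol, against 7.48, 7.78, 7.67 and 7.40 after DMSO. The groups overlapped, the difference of -0.22 ± 0.11 (SE; limma adjusted p = 0.492) was the most negative among the members, and it was -0.14 without celastrol replicate 4. Mrpl14, of the face toward the small subunit, had 8.46, 8.49, 8.30 and 8.49 after celastrol, against 8.53, 8.59, 8.64 and 8.47 after DMSO, a difference of -0.13 ± 0.06 (SE; limma adjusted p = 0.504) that was -0.08 without celastrol replicate 3.

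Among the small-subunit symbols, Mrps28 had 7.72, 7.54, 7.71 and 7.69 after celastrol, against 7.84, 7.71, 7.87 and 7.72 after DMSO, and Mrps18b had 8.93, 9.09, 8.99 and 9.14 after celastrol, against 9.21, 9.05, 9.11 and 9.21 after DMSO. Their differences were -0.13 and -0.11 and limma's adjusted p 0.571 and 0.586, and that of Mrps18b was -0.07 without celastrol replicate 1. Mrps26 had 8.38, 8.28, 7.91 and 8.12 after celastrol, against 7.87, 7.91, 8.01 and 8.19 after DMSO. The groups overlapped widely, with a difference of 0.18 ± 0.10 (SE; limma adjusted p = 0.590) that was 0.11 without celastrol replicate 1.

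Mrps36, the dehydrogenase subunit, had the highest celastrol minus DMSO difference of the members. It had 6.47, 6.37, 6.42 and 6.48 after withaferin A, 6.68, 7.21, 6.78 and 6.61 after celastrol, and 6.67, 6.54, 6.49 and 6.63 after DMSO. The celastrol minus DMSO difference was 0.24 ± 0.10 (SE; limma adjusted p = 0.425), and it was 0.11 without celastrol replicate 2, the array at 7.21. A further Mrps36 probe set gave 0.33 on all arrays. RefSeq lists 3 pseudogenes of Mrps36.

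**Figure D4:**
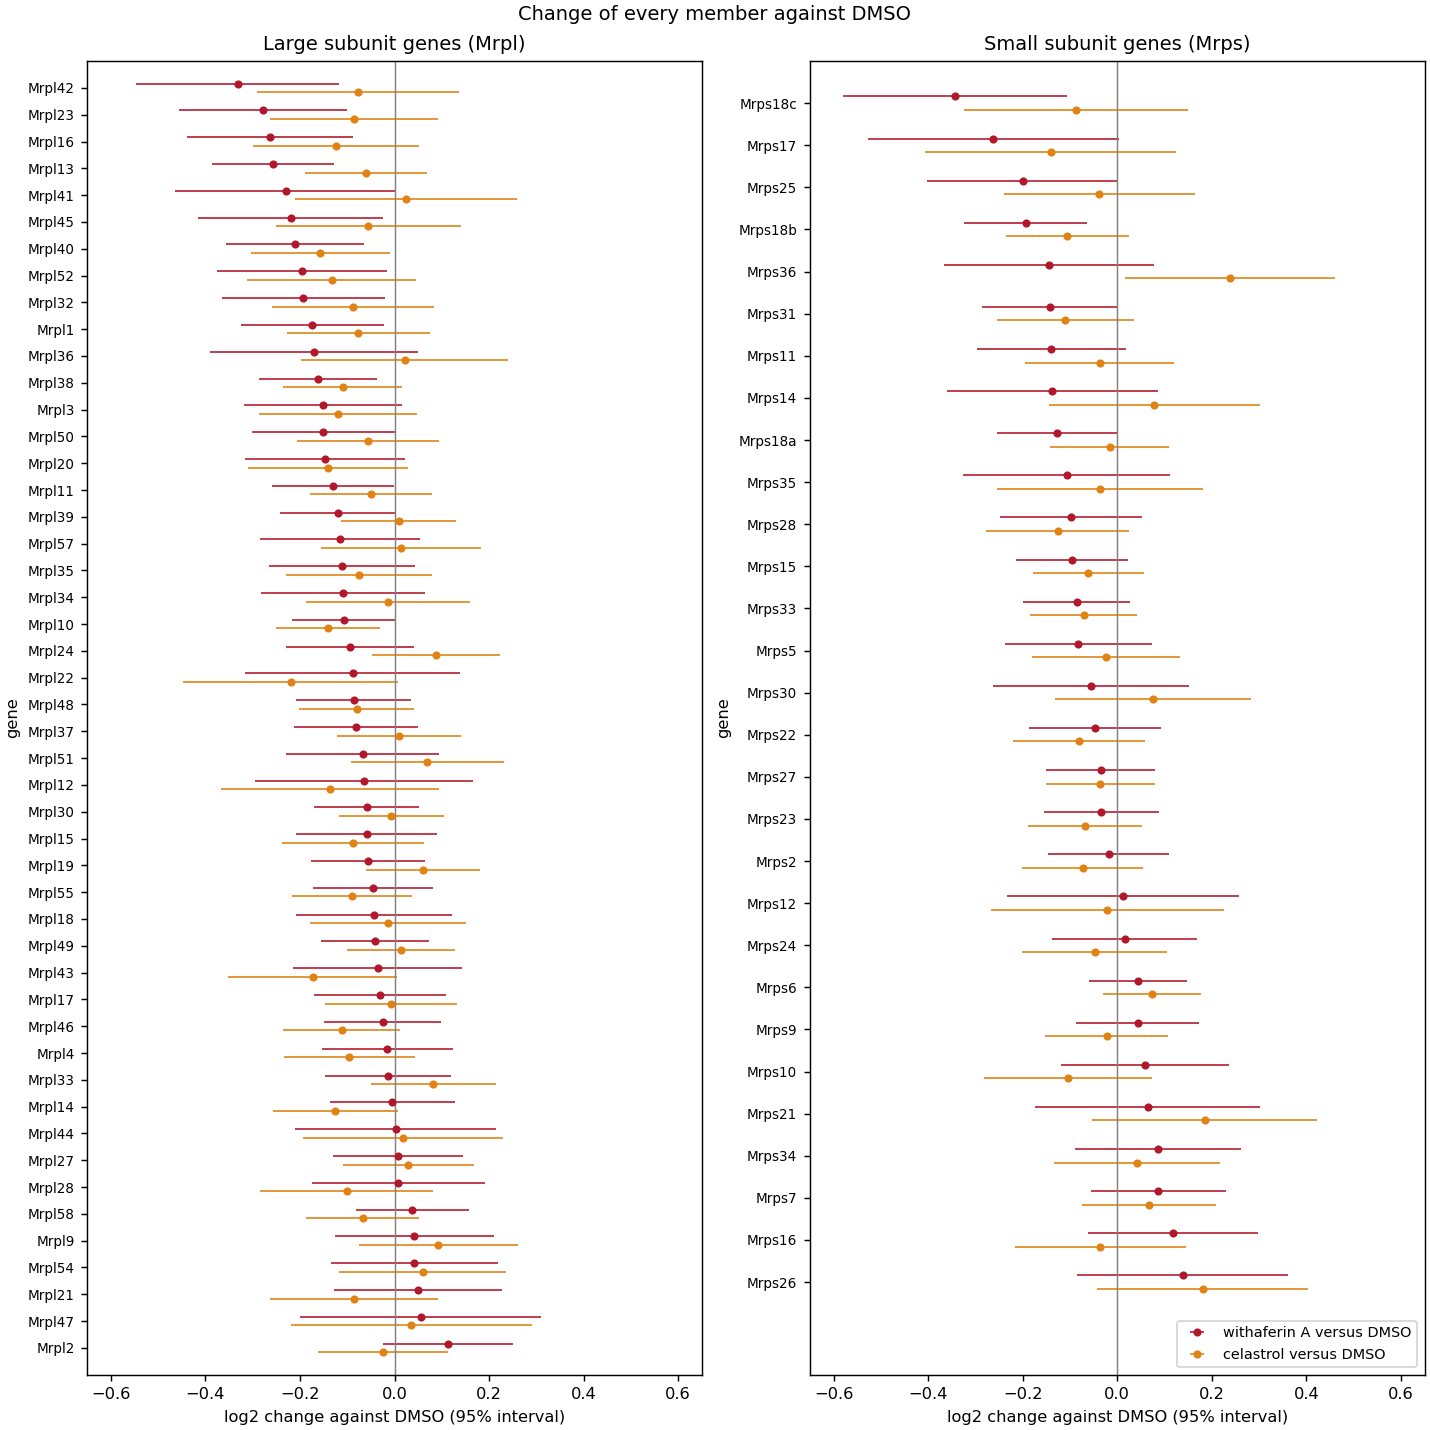
Log2 change against DMSO (x axis) of each of the 48 Mrpl and 29 Mrps genes (y axis, ordered by the value for withaferin A), with points for withaferin A and for celastrol and bars for the 95% interval of limma's fit. Of the 77 members, 58 lie below 0 for withaferin A and 54 for celastrol, and most intervals include 0.

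The starts of 23 members lie within 500 bases of a start on the opposite strand, and Mrpl46 and Mrps11, which stand 42 bases apart, were the only such pair made of 2 members and are shown for that reason. Mrpl46, of the central protuberance, had 7.86, 8.04, 8.05 and 7.996 after withaferin A, 7.84, 7.95, 7.88 and 7.93 after celastrol, and 8.03, 7.91, 8.06 and 8.04 after DMSO. Mrps11, the homologue of bacterial S11, had 7.56, 7.80, 7.81 and 7.72 after withaferin A, 7.85, 7.96, 7.85 and 7.63 after celastrol, and 7.89, 7.85, 7.84 and 7.86 after DMSO. The withaferin A minus DMSO difference was -0.03 ± 0.06 for Mrpl46 and -0.14 ± 0.07 for Mrps11, and the celastrol minus DMSO difference was -0.11 ± 0.06 for Mrpl46 and -0.04 ± 0.07 for Mrps11 (SE, n = 4 per group; limma adjusted p between 0.370 and 0.911). The difference between the genes of the pair was not tested.

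Mrpl43 starts 116 bases from Twnk, the helicase that replicates mitochondrial DNA, a pair chosen after its values were seen. Twnk averaged 6.85 ± 0.03 after withaferin A, 6.68 ± 0.15 after celastrol and 6.63 ± 0.12 after DMSO (SD, n = 4 each), a withaferin A minus DMSO difference of 0.22 ± 0.08 (SE; limma adjusted p = 0.232). Mrpl43 itself had 8.87, 9.005, 9.31 and 9.12 after withaferin A, widely spread around the DMSO arrays, with a difference of -0.04 ± 0.08 (SE; limma adjusted p = 0.858). The regions between both pairs of starts are shown with 30 bases past each start, on the strand of Mrps11 and of Mrpl43 and in build GRCm38.p6. Capitals mark ETS cores, which begin at bases -56 and -12 from the Mrpl43 start, and the Mrpl46 and Mrps11 stretch held none of the 3 cores. The YY1 core counted for Mrps11 begins at base -108 from its start, outside the stretch shown.
Mrps11 and Mrpl46 (chr7:78783060-78783160, plus strand): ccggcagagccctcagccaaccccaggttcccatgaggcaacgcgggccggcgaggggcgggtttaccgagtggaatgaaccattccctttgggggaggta
Mrpl43 and Twnk (chr19:45006413-45006587, minus strand): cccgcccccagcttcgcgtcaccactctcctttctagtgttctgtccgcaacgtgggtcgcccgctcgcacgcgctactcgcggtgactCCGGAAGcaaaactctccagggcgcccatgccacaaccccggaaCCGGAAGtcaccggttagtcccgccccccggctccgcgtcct

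The third comparison set withaferin A against celastrol. Their doses differ, so it contrasts these treatments as given and not the compounds at a matched dose. The median log2 difference of the members, withaferin A minus celastrol, was -0.035, against 0.013 over all genes, and 51 members (66.2%) lay below 0 against 45.1% of all genes. The median was -0.021 without withaferin A replicate 4, and -0.054 without withaferin A replicate 2 or celastrol replicate 4. The large-subunit genes had a median of -0.051 and the small-subunit genes one of -0.032. The small-subunit median was -0.062 without withaferin A replicate 3, -0.012 without withaferin A replicate 4 and -0.019 without celastrol replicate 1. In limma's test 0 of 77 members rose and 0 fell, where 7 of 14953 genes (0.0468%) were called, 1 higher (0.00669%) and 6 lower (0.0401%). With the limit at 0.10 the members called were 0 as well, against 0.515% of all genes, and the lowest adjusted p of a member was 0.148. Before adjustment 8 members were under 0.05, all lower with withaferin A (6 Mrpl and 2 Mrps), which is 10.4% of the members against 7.46% of all genes lower and 8.67% higher at that level.

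The lowest adjusted p belonged to Mrps36, at -0.38 ± 0.10 (SE, n = 4 per group; limma adjusted p = 0.148), with all withaferin A arrays below all celastrol arrays. Without celastrol replicate 2, the array rich in pituitary transcripts, the difference was -0.25. Its interval was the only one among the members that reached outside -0.5 and 0.5, against 94.6% of all genes inside. The further probe set gave -0.39. Mrpl13, given above, followed at -0.20 ± 0.06 (SE; limma adjusted p = 0.179).

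Mrpl24, of the exit tunnel, had 8.88, 8.996, 8.98 and 8.80 after withaferin A, against 8.96, 9.15, 9.20 and 9.07 after celastrol, a difference of -0.18 ± 0.06 (SE; limma adjusted p = 0.207). Of the members whose withaferin A arrays are given above, Mrpl42 had 6.58, 6.66, 6.59 and 6.48 after celastrol, Mrpl23 had 9.64, 9.56, 9.33 and 9.43, and Mrps18c had 8.65, 8.48, 8.22 and 8.53. In all 3 the withaferin A and celastrol arrays overlapped. The withaferin A minus celastrol differences of Mrpl42, Mrpl23 and Mrps18c were -0.25, -0.19 and -0.26, with limma adjusted p of 0.244, 0.277 and 0.279. Mrpl41, a mitochondria-specific protein near the exit tunnel, had 8.36, 8.43, 8.60 and 8.31 after withaferin A, against 8.69, 8.84, 8.74 and 8.45 after celastrol, a difference of -0.25 ± 0.11 (SE; limma adjusted p = 0.276). Its dimmer probe set gave -0.04, and for withaferin A minus DMSO the brighter probe set gave -0.23 and the dimmer one 0.004, so the probe sets of Mrpl41 disagree.

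Mrpl39, a mitochondria-specific protein, had 9.72, 9.65, 9.68 and 9.71 after withaferin A, against 9.74, 9.81, 9.76 and 9.96 after celastrol. The groups did not overlap, with a difference of -0.13 ± 0.06 (SE; limma adjusted p = 0.284) that was -0.08 without celastrol replicate 4. The homologues of bacterial S14 and S10 lay on opposite sides. Mrps14 had 8.05, 8.17, 8.09 and 8.25 after withaferin A, against 8.41, 8.14, 8.25 and 8.63 after celastrol, and Mrps10 had 8.55, 8.68, 8.73 and 8.90 after withaferin A, against 8.69, 8.58, 8.41 and 8.51 after celastrol. Their differences were -0.22 ± 0.10 and 0.16 ± 0.08 (SE; limma adjusted p = 0.320 and 0.344). That of Mrps14 was -0.13 without celastrol replicate 4 and that of Mrps10 was 0.10 without withaferin A replicate 4.

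Members with withaferin A arrays entirely below the celastrol arrays numbered 4 (Mrpl13, Mrpl37, Mrpl39 and Mrps36), 5.19% of the members against 5.35% of all genes. The 1 member entirely above was Mrpl58, against 3.92% of all genes. Both directions together numbered 8 without withaferin A replicate 2, 9 without withaferin A replicate 3 or celastrol replicate 4, 11 without celastrol replicate 3 and 12 without withaferin A replicate 4, where the share of all genes ran between 11.7% and 15.5%. Mrpl58 is a peptidyl-tRNA hydrolase of the large subunit that frees stalled chains, and it had 9.27, 9.25, 9.31 and 9.25 after withaferin A, 9.17, 9.15, 9.15 and 9.19 after celastrol, and 9.17, 9.22, 9.39 and 9.15 after DMSO. The withaferin A minus celastrol difference was 0.11 ± 0.06 (SE; limma adjusted p = 0.366). The DMSO arrays covered nearly the whole range of both.

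Another 4 members, chosen by their function, had groups that overlapped. Mrpl12, the stalk protein that binds translation factors, had 9.29, 9.16, 9.30 and 9.36 after withaferin A, 9.29, 9.28, 9.44 and 8.81 after celastrol, and 9.37, 9.22, 9.42 and 9.36 after DMSO. Only celastrol replicate 4 stood apart, and without it the celastrol minus DMSO difference of -0.14 was -0.005, and without celastrol replicate 3 it was -0.21. Mrps12, of the decoding centre, had 7.48, 7.68, 7.51 and 7.60 after withaferin A, 7.55, 7.41, 7.80 and 7.37 after celastrol, and 7.31, 7.58, 7.87 and 7.47 after DMSO, differences of 0.01 ± 0.11 and -0.02 ± 0.11 (SE) from DMSO whose signs changed with the processing. Mrps5, also near the decoding site, had 9.32, 9.08, 9.45 and 9.21 after withaferin A, 9.28, 9.42, 9.28 and 9.31 after celastrol, and 9.40, 9.27, 9.33 and 9.38 after DMSO. Mrps30, of the large subunit despite its symbol, had 7.004, 7.14, 7.12 and 6.71 after withaferin A, 7.21, 7.12, 7.01 and 7.19 after celastrol, and 7.22, 7.06, 6.87 and 7.06 after DMSO. For these 4, limma's adjusted p against DMSO was 0.605 or more.

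Proteins of the same ribosome with other names were read from 4 genes. Chchd1, a small-subunit protein, averaged 7.89 ± 0.16 after withaferin A, 7.99 ± 0.09 after celastrol and 8.27 ± 0.19 after DMSO (SD, n = 4 each), which is -0.37 ± 0.10 and -0.27 ± 0.10 (SE) relative to DMSO (limma adjusted p = 0.163 and 0.280). Ptcd3 was -0.18 ± 0.08 from DMSO after withaferin A and 0.03 ± 0.08 after celastrol (SE; limma adjusted p = 0.277 and 0.934). Gadd45gip1 was 0.01 ± 0.05 from DMSO after withaferin A and -0.13 ± 0.05 after celastrol (SE; limma adjusted p = 0.935 and 0.320), with a withaferin A minus celastrol difference of 0.14 ± 0.05 (SE; limma adjusted p = 0.211). Dap3 was -0.11 ± 0.05 from DMSO after withaferin A and -0.02 ± 0.05 after celastrol (SE; limma adjusted p = 0.337 and 0.922). None of the 4 passed limma's test in any comparison.

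The genes that serve the mitochondrial ribosome were read as 5 further lists. Counted from limma's fit, 0 genes were called in each of the lists of 15 translation factors, 18 assembly factors, 16 tRNA synthetases, 14 genes of mitochondrial DNA expression and 12 genes of the mitochondrial stress response, in all 3 comparisons. The withaferin A minus DMSO medians were -0.044, -0.049, 0.039, -0.010 and -0.020 in that order, and the celastrol minus DMSO medians 0.015, -0.003, 0.001, -0.002 and 0.047. The withaferin A minus celastrol medians were -0.035, -0.052, 0.023, -0.054 and -0.025, against -0.035 for the mitochondrial ribosome. For withaferin A against DMSO, genes under an unadjusted p of 0.05 numbered 2, 2, 0, 2 and 3. As shares of the lists these were 13.3%, 11.1%, 0%, 14.3% and 25%, against 15.7% of all genes. The genes under that level included Guf1, an elongation factor (-0.21), Nsun4, an rRNA methyltransferase (-0.14), and Mtg2, an assembly GTPase (0.16). Others were Ppargc1b, a coactivator of mitochondrial genes (0.14), Trib3, a target of the integrated stress response (0.25), and Hspe1, the mitochondrial co-chaperonin (-0.15). The limma adjusted p of these named genes was between 0.192 and 0.300. Tfam (-0.13 ± 0.12), Polrmt (0.06 ± 0.08) and Tufm (-0.05 ± 0.06, SE), which package, transcribe and help translate the mitochondrial genome, had limma adjusted p of 0.621, 0.741 and 0.725.

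**Figure D5:**
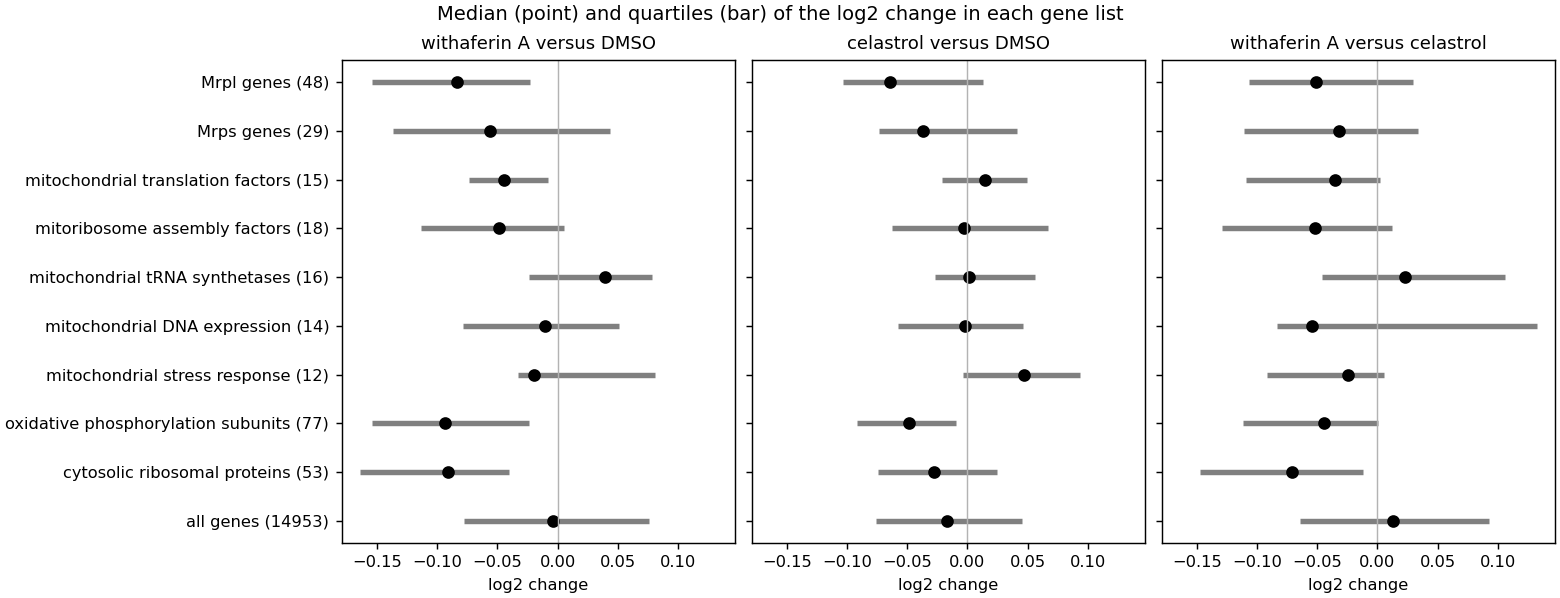
Median (points) and quartiles (bars) of the log2 change (x axis) in 9 gene lists and in all genes tested, for the 3 comparisons, with the number of genes tested in parentheses. With withaferin A against DMSO, the Mrpl, oxidative phosphorylation and cytosolic ribosomal lists have medians of -0.084, -0.094 and -0.091, below those of the translation factors and tRNA synthetases.

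The lists of oxidative phosphorylation subunits and cytosolic ribosomal proteins had negative medians as well. With withaferin A set against DMSO, the median of 77 oxidative phosphorylation subunits was -0.094 with 64 below 0, and that of 53 cytosolic ribosomal proteins was -0.091 with 44 below 0, against -0.081 with 58 of 77 below 0 for the mitochondrial ribosome. For celastrol against DMSO the medians were -0.049 for oxidative phosphorylation and -0.028 for the cytosolic ribosome, against -0.050 for the mitochondrial ribosome. No gene of these lists passed limma's test, although 26 of the oxidative phosphorylation genes (33.8%) and 23 of the cytosolic ribosomal genes (43.4%) were under an unadjusted p of 0.05 for withaferin A against DMSO. The share was 19.5% for the members and 15.7% for all genes. The mean of the oxidative phosphorylation list ran between -0.107 and -0.071 with withaferin A, between -0.088 and -0.008 with celastrol and between -0.038 and 0.030 with DMSO. Genes with withaferin A arrays entirely below DMSO made up 23.4% of the oxidative phosphorylation list and 20.8% of the cytosolic ribosomal list. The share was 11.7% for the members and 4.69% for all genes. The differences between the lists were not tested, and a negative median was not particular to the mitochondrial ribosome.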

How the data were processed

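Total RNA of each sample was labelled with biotin and read on an Affymetrix array of its own, and the labels place 4 samples in each group. The deposited values are log2 signals made by the authors with RMA, per the submitters' processing notes, already on a scale common to all arrays. The version is not given in the sources used here. Of 35556 probe sets, 21789 carried 1 gene symbol, 1621 several and 12146 none in the platform annotation, and only the first kind was used. The probe set of highest mean stood for a gene, and genes under the 25th percentile of gene means (5.81) were left out, which left 14953. A model with a mean for each group was fitted over the 12 arrays by limma 3.58.1 in R 4.3.3 (9 residual degrees of freedom, two-sided tests, Benjamini-Hochberg adjustment over all genes, threshold 0.05), checked on simulated data first. The number of arrays limits the precision. Since the labels do not say whether an array is 1 mouse, p-values measure the spread between these samples.

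All members were described. Values on every array are given for, in each comparison, the 6 Mrpl and 4 Mrps genes of smallest p, for 8 members chosen by role, and for Mrps11, the start-region partner of Mrpl46. The members and lists were chosen with earlier results of these data known. All 77 symbols matched RefSeq, and sequences are RefSeq's (GRCm38.p6). Alternatives varied the filter, probe set rule, normalization, variance prior, array weights, arrays fitted, replicate block, threshold and subunit assignment. Plots used matplotlib 3.10.9.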

Additional observations from a re-analysis of the deposited data

Results flagged for a closer look

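Of 96 groups of 4 arrays examined, for 29 members and the means of all members, of Mrpl and of Mrps, 3 held an array whose gap to its nearest neighbour exceeded 0.829 of the whole range, Dixon's limit for 4 values, and chance alone flags about 1 group in 20. Mrpl40 on celastrol replicate 1 was 8.71, against 8.83 to 8.84 on the other celastrol arrays. Mrps28 on withaferin A replicate 4 was 7.51, against 7.73 to 7.76 on the other withaferin A arrays. Mrps28 on celastrol replicate 2, the array with the highest pituitary marker mean, was 7.54, against 7.69 to 7.72 on the other celastrol arrays.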

How the results depend on the processing

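The count of members called by limma was 0 in all 3 comparisons under each of 11 other settings and with each of the 12 arrays left out. The lowest adjusted p over these was 0.162 for celastrol against DMSO, 0.052 for withaferin A against DMSO and 0.111 for withaferin A against celastrol. With the replicate number as a block the count was also 0 in each comparison. The numbers do not pair the arrays, since same-numbered arrays correlated between -0.281 and 0.119 in their deviations and 1 of 12 arrays correlated best with its own number.

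The members' medians kept a negative sign under all settings tried, but their size followed the scaling. For withaferin A against DMSO, centring each array on its median gave -0.127 for all members, -0.13 for Mrpl and -0.10 for Mrps (all genes -0.050), and quantile normalization gave -0.045 for all members and -0.044 for Mrpl. For withaferin A against celastrol, centring gave -0.070 for all members, -0.086 for Mrpl and -0.066 for Mrps. The medians of all genes under quantile normalization, and under centring in this last comparison, are not given here. Leaving out single arrays gave medians over all members from -0.092 to -0.061 for withaferin A against DMSO, from -0.058 to -0.039 for celastrol against DMSO and from -0.054 to -0.021 for withaferin A against celastrol.

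The Mrpl minus Mrps difference ranged over the single arrays left out from -0.034 to 0.0028 for celastrol against DMSO (0.0028 without celastrol replicate 2, and also 0.0028 without that array and withaferin A replicate 1 together), from -0.056 to 0.001 for withaferin A against DMSO, and from -0.035 to 0.018 for withaferin A against celastrol (0.018 without withaferin A replicate 3). Non-overlapping members numbered 5 with centring and 6 without those 2 arrays for celastrol against DMSO, and 8 and 8 for withaferin A against celastrol. The share of all genes in these settings is not given here, so these counts cannot be set against the background. Leaving out single arrays gave 2 to 8 non-overlapping members for celastrol against DMSO and 9 to 17 for withaferin A against DMSO. For withaferin A against celastrol it gave 5 to 12. The share of all genes then ran from 7.21% to 12.6%, from 7.6% to 20.8% and from 9.27% to 16% in that order.

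Only the members of smallest p and those chosen by role were followed over these settings, and signs turned for 4 of them with values near 0. Sign changes of the other members were not counted. For withaferin A against DMSO, Mrps12 was -0.013 with quantile normalization and -0.033 with centring, and Mrpl58 was -0.0079 with centring. For celastrol against DMSO, Mrps12 was 0.030 with array weights and 0.021 without celastrol replicate 2 and withaferin A replicate 1. With single arrays left out, Mrps12 ranged from -0.110 to 0.083 for celastrol against DMSO and from -0.070 to 0.116 for withaferin A against DMSO, Mrps18a from -0.056 to 0.0075 for celastrol against DMSO, and Mrps30 from -0.118 to 0.038 for withaferin A against DMSO. The causes were not tested.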
